A study of Mus musculus with 12 samples.

Results

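The genes described here are 7 cell-surface proteins linked to T-cell inhibition, Pdcd1 (encoding PD-1), Ctla4, Tigit, Lag3, Havcr2 (TIM-3), Cd160 and Entpd1 (CD39), together with the transcription factor gene Tox. They were matched by symbol in the feature lists of the count matrices, and all 8 were found among 32285 gene rows. The samples were dissociated mouse tumours of SCC35 lines from a study of melanoma rejection, stained with hashtag antibodies, sorted for propidium iodide-negative cells and profiled with the 10x Genomics 5′ kit. The groups were control lines 15 and 18 and lines 19 and 24 with knockout (KO) of Mif, which encodes the secreted cytokine macrophage migration inhibitory factor. The labels use the name SCC35 Mif KO for all 4 lines and add the word control for lines 15 and 18, and they give neither the host animals, their age nor whether a line was 1 clone. Tumours were taken at days 6, 10 and 16, with 18 control and 17 KO tumours, beside 3 control and 4 KO samples of day 0 and 3 tumours called WT in the deposited sheet, which belong to no labelled group. Letters A and B of each line were captured in a library of that line alone and letter C in a mixed library, so line and library cannot be told apart among the single-line libraries.

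PD-1 and CTLA-4 belong to the CD28 family: PD-1 recruits phosphatases to the activated T-cell receptor complex when it binds PD-L1 or PD-L2, and CTLA-4 competes with CD28 for CD80 and CD86. TIGIT competes with CD226 for the ligand CD155, LAG-3 binds MHC class II among other ligands, and TIM-3 is found on T cells and on myeloid cells. CD160 is a receptor for HVEM on cytotoxic lymphocytes, and CD39 is an ectoenzyme that begins the conversion of extracellular ATP to adenosine. TOX is a nuclear protein needed for the lasting dysfunctional state of T cells under chronic antigen, in which several of these receptors are carried together, although activated T cells carry some of them too.

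Cells were sorted into classes by raw UMIs (unique molecular identifiers, 1 per captured RNA molecule) of genes other than the 8. T cells had at least 2 UMIs of Cd3d, Cd3e and Cd3g, and were split by Cd8a and Cd8b1, by Cd4 and by Foxp3, and NK cells had no Cd3 UMI and at least 2 UMIs of Ncr1 and Klrb1c. T and NK cells also had at most 2 UMIs of C1qa, C1qb, C1qc and Csf1r together. In the 35 tumours of the 4 lines these gates gave 1272 CD8 T, 692 CD4 T, 201 regulatory T and 259 NK cells, 2424 lymphocytes of these classes in all. Over all hashtagged samples, WT and day 0 among them, 2370 further T cells by Cd3 fell in none of these classes. In the same samples 1430 were CD8 T, 723 CD4 T and 213 regulatory T cells. The unclassed T cells entered no level, share or test. For reference, 8427 cells of a macrophage gate (at least 5 UMIs of C1q genes) and 53303 cells of a non-immune gate were measured in the same way. The non-immune gate asked for no UMI of Ptprc, Cd3d, Cd3e, Cd3g, C1qa, C1qb, C1qc, Csf1r, Ncr1 or Klrb1c. It set no limit on Cd8a, Cd8b1, Cd4 or Foxp3. A tumour's level is the UMIs of a gene per 1000000 UMIs (CPM) summed over its cells of a class, and only tumours with at least 10 cells of the class entered means and tests unless another minimum is given. These were 24 tumours for CD8 T cells, 18 for CD4 T cells, 7 for regulatory T cells and 11 for NK cells, and lines 15 and 18 gave 2 and 5 of the CD8 T tumours.

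The libraries held 151385933 to 239699029 gene UMIs each, and 100557 of 163866 passing cells carried 1 hashtag. Of 149440 distinct barcodes, 13716 (9.18%) occurred in more than 1 library. In the non-immune gate, Mif lay between 1880 and 3010 CPM in the control lines, between 45.7 and 175 CPM in line 19 and between 230 and 619 CPM in line 24, pooled by line and day. Which part of Mif was disrupted is not stated by the labels. Among T-cell markers that no gate used, Trbc2 stood at 365, 266 and 170 CPM and Trac at 168, 155 and 189 CPM in the CD8 T, CD4 T and regulatory T gates, against 70.8 and 6.69 CPM in the NK gate. In the same order, Lat was at 265, 361 and 318 CPM against 16.3, and Cd2 at 206, 346 and 553 against 99.5. Thy1 did not set NK cells apart, at 320, 385 and 264 CPM against 353. The NK list (8 markers, none at 0, with the gate genes Ncr1 and Klrb1c among them) summed to 5794 CPM in the NK gate. All 4 B-cell markers were at 0 in the NK gate. The macrophage list (8 markers) summed to between 0.287% and 2.42% of its macrophage-gate level in the T-cell and NK gates of the 4 lines. The gates themselves hold its C1qa, C1qb, C1qc and Csf1r low in these classes, and its C1q genes high in the macrophage gate. Its other markers, Apoe, Cd68, Lyz2 and Adgre1, were at 28.9, 15.7, 47.4 and 1.43 CPM in the CD8 T gate. In the macrophage gate they were at 3160, 750, 3500 and 196 CPM. The line and stroma list (7 markers) reached 13.0%, 37.2%, 21.9% and 23.3% of its non-immune level in the CD8 T gates of lines 15, 18, 19 and 24, and 13.5%, 139%, 31.2% and 32.7% in their CD4 T gates, so RNA of line cells or stroma was counted in the lymphocyte gates, most in the CD4 T gate of line 18. Its part in the results was not tested. Intervals on pooled values are exact 95% Poisson or binomial intervals and cover counting error only. Pooled values weigh the lines unequally. Lines 15, 18, 19 and 24 gave 79, 132, 272 and 789 of the CD8 T cells and 53, 48, 257 and 334 of the CD4 T cells.

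By GENCODE M21 coordinates on GRCm38, the mouse build also named mm10, the genes stand at chr1:94038305-94052553 (Pdcd1, minus strand), chr1:60887000-60915832 (Ctla4, plus), chr16:43648867-43664146 (Tigit, minus), chr6:124904361-124911705 (Lag3, minus), chr11:46454935-46481255 (Havcr2, plus), chr3:96798763-96829351 (Cd160, minus), chr19:40612366-40741602 (Entpd1, plus) and chr4:6686353-6991557 (Tox, minus). Counts were per gene, over an annotation that is not named and may differ from these loci. Cd160 overlaps Pdzk1, Ctla4 overlaps the pseudogene Rpl18-ps1, Tox overlaps Gm11802 and Entpd1 overlaps Gm16027, Gm8783 and AC166063.1, so reads there could be split by the authors' counting.

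The promoters of Pdcd1, Ctla4, Tigit and Cd160 are shown, the 4 genes called between lymphocyte classes, with Tigit among them also detected in cells without Ptprc. Each is the RefSeq window on GRCm38.p6 from 250 bases before to 50 bases after a start. Capitals mark matches, on either strand, to 4 short motifs: GGAAA (the core bound by NFAT), TGANTCA (AP-1), TGTGGT (RUNX) and AGGTGT (T-box factors). Of 32851 windows of this length, 61.3% hold GGAAA, 7.81% TGANTCA, 16.8% TGTGGT and 13.7% AGGTGT. No match overlaps a match to another motif.
Pdcd1, chr1:94052504-94052803, minus strand: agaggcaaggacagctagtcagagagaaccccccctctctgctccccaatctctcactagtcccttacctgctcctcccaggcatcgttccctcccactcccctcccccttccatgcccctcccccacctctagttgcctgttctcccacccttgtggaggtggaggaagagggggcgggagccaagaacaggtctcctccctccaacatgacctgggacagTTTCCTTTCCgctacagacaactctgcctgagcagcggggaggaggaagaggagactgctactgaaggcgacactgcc
Ctla4, chr1:60908775-60909074, plus strand: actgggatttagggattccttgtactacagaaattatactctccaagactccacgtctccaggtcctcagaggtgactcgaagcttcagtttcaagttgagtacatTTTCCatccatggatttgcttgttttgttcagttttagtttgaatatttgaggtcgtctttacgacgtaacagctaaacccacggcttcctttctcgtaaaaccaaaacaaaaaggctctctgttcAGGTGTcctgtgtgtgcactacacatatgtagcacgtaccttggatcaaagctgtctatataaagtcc
Tigit, chr16:43664135-43664434, minus strand: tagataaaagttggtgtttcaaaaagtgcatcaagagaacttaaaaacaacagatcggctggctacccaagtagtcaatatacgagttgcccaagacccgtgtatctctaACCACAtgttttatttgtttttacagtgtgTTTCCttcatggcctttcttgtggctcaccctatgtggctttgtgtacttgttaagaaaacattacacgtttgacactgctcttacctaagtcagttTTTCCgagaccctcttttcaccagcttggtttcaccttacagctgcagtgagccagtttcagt
Cd160, chr3:96829302-96829601, minus strand: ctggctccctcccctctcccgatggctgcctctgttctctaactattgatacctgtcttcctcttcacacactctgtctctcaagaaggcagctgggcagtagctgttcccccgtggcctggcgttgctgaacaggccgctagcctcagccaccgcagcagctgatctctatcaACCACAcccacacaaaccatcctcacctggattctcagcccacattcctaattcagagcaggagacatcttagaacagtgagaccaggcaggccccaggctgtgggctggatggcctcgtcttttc
Pdcd1 holds 2 matches to GGAAA, Tigit 2 to GGAAA and 1 to TGTGGT, Ctla4 1 to GGAAA and 1 to AGGTGT, and Cd160 1 to TGTGGT. A match is a description of letters and not a site. The Ctla4 window does not hold the start of the GENCODE gene, and Cd160 has 2 starts, of which 1 is shown. RefSeq windows were found for 6 of the 8 genes. Lag3 and Tox are named only.

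Ctla4 set the T-cell classes apart. It was lowest in NK cells, higher in CD8 T cells, higher again in CD4 T cells and highest in regulatory T cells, where CTLA-4 is a constitutive receptor. Pooled over the 4 lines the levels were 17.2 CPM in NK cells, 113 CPM (103 to 125) in CD8 T cells, 325 CPM (299 to 353) in CD4 T cells and 839 CPM (763 to 921) in regulatory T cells. In the macrophage and non-immune gates Ctla4 was at 0.761 and 0.581 CPM. Per tumour, the CD8 T values ran from 0 to 204 CPM with a mean of 87.1 ± 49.1 (SD, n = 24), and the CD4 T values from 80.8 to 738 CPM with a mean of 335 ± 157 (SD, n = 18). The 7 regulatory T tumours ran from 543 to 1440 CPM with a mean of 910 ± 334 (SD). The ranges of neighbouring T-cell classes overlapped. Between NK and CD8 T cells Ctla4 did not pass the count filter, and it was lower in NK cells in 9 of 9 tumours (2 control and 7 KO), at means of 7.09 and 75.8 CPM. With at least 5 cells it was lower in NK cells in 15 of 19 tumours and higher in 3, at 29.9 ± 49.6 against 83.0 ± 51.4 CPM (SD).

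Within the same 17 tumours, Ctla4 was lower in CD8 T than in CD4 T cells in 17 of 17, at 102 ± 45.5 against 326 ± 157 CPM (SD). Of these tumours 2 were of control and 15 of KO lines, so the comparison of these classes rests mostly on KO lines. In edgeR's quasi-likelihood test with the tumour as a block the log2 fold change was -1.55 (SE 0.17, adjusted p = 2.02e-08). That test called 356 of 3024 genes (11.8% called), 174 higher and 182 lower in CD8 T cells, and 2 of the 6 members tested. The CD4 T gate asks only for no Foxp3 UMI, and regulatory T markers were counted in it: Ccr8 was at 11.7, 163 and 191 CPM, Il2ra at 38.0, 105 and 382 CPM and Tnfrsf4 at 80.3, 677 and 1400 CPM in the CD8 T, CD4 T and regulatory T gates, while Ikzf2 was higher in the CD8 T than in the CD4 T gate, at 131, 95.8 and 502 CPM. The list of 6 summed to 433.5, 1526 and 3923 CPM, with Foxp3 at 0 in the first and the second by the gates. Its part in the Ctla4 difference was not tested. The call on Ctla4 held in 14 of 14 alternatives, with log2 fold changes from -1.73 to -1.36. The number of genes called was 198 without line 24 and 67 with a stricter gate of at least 2 UMIs of the CD8 or CD4 gene.

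Only 4 tumours had at least 10 regulatory T and 10 CD4 T cells. There Ctla4 was higher in regulatory T cells in 4 of 4, with a log2 fold change of 1.19 (SE 0.22) and an adjusted p of 0.0525 in edgeR, among 1103 genes of which 4 passed (0.363% called), or 22 with DESeq2. The number called was 49 without line 15, 11 without line 19 and 2 without line 24. With a minimum of 5 cells, chosen after these sizes were seen, 16 tumours could be compared, and 73 of 932 genes passed in edgeR (7.83% called), among them all 3 members that were tested. Ctla4 stood at 861 ± 325 against 339 ± 146 CPM (SD) and was higher in regulatory T cells in 15 of 16 tumours, with a log2 fold change of 1.31 (SE 0.19, adjusted p = 4.21e-05 in edgeR).

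Cd160, whose product binds HVEM, showed the opposite order between CD8 T and CD4 T cells. Pooled levels were 64.0 CPM (55.9 to 73.0) in CD8 T cells, 46.9 CPM (34.7 to 62.0) in NK cells, 6.13 CPM (3.06 to 11) in CD4 T cells and 5.62 CPM in regulatory T cells, and under 0.13 CPM in both reference gates. The intervals of CD8 T and NK cells overlapped, as did those of CD4 T and regulatory T cells. Per tumour, CD8 T cells ranged from 0 to 158 CPM with 2 of 24 tumours at 0, and CD4 T cells were at 0 in 12 of 18 tumours. Regulatory T cells had no Cd160 UMI in 7 of 7 tumours. Between CD8 T and CD4 T cells of the same tumours, Cd160 was 51.3 ± 36.4 against 8.74 ± 15.9 CPM (SD), higher in CD8 T cells in 15 of 17. The log2 fold change was 2.84 (SE 0.47, adjusted p = 2.84e-05 in edgeR) and was called in 9 of 9 alternatives.

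Pdcd1 was a T-cell transcript in these samples. Pooled levels were 182 CPM (162 to 202) in CD4 T cells, 165 CPM (151 to 179) in CD8 T cells, 67.4 CPM (47.2 to 93.4) in regulatory T cells and 25.8 CPM (17.0 to 37.6) in NK cells, against 0.856 CPM in the macrophage gate and 0.395 CPM in the non-immune gate. The CD4 T and CD8 T intervals overlapped, and the difference of the same 17 tumours was -0.29 on the log2 scale (SE 0.25, adjusted p = 0.627 in edgeR), with CD8 T cells higher in 8. Per tumour, CD8 T cells ran from 0 to 293 CPM with a median of 102 and a mean of 130 ± 85.1 (SD, n = 24), and CD4 T cells from 29.7 to 426 CPM with a mean of 196 ± 112 (SD, n = 18).

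In regulatory T cells Pdcd1 was below the CD4 T level in 4 of 4 tumours, but with an adjusted p of 0.344 in edgeR. With at least 5 cells it was lower in 12 of 16 tumours, at 70.4 ± 58.2 against 179 ± 124 CPM (SD), with a log2 fold change of -1.35 (SE 0.4, adjusted p = 0.0382 in edgeR), called in 5 of 6 alternatives and not without line 15 (adjusted p = 0.0591). NK cells had a Pdcd1 UMI in 2 of 11 tumours. Of the 27 Pdcd1 UMIs in the NK gate, 15 (55.6%) came from 1 cell of line 15 at day 10, which held 8020 UMIs, 212 of Gzma and 0 of Trac. Line 15 gave 22 of the 27, while both of its tumours with at least 10 NK cells were at 0. Those UMIs thus count in the pooled level but not in the test at that minimum. With at least 5 cells Pdcd1 was lower in NK than in CD8 T cells in 18 of 19 tumours, at 10.6 ± 21.8 against 130 ± 81.5 CPM (SD). With at least 10 cells Pdcd1 was lower in NK cells in 9 of 9 tumours (2 control and 7 KO), at 3.14 ± 6.27 against 123 ± 92.0 CPM (SD). The log2 fold change was -4.45 (SE 0.58, adjusted p = 3.64e-05 in edgeR), among 82 called of 1648 genes (4.98% called) and 1 of 2 members tested, and held in 14 of 14 alternatives. The number of genes called was 40 without line 19.

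**Figure D1:**
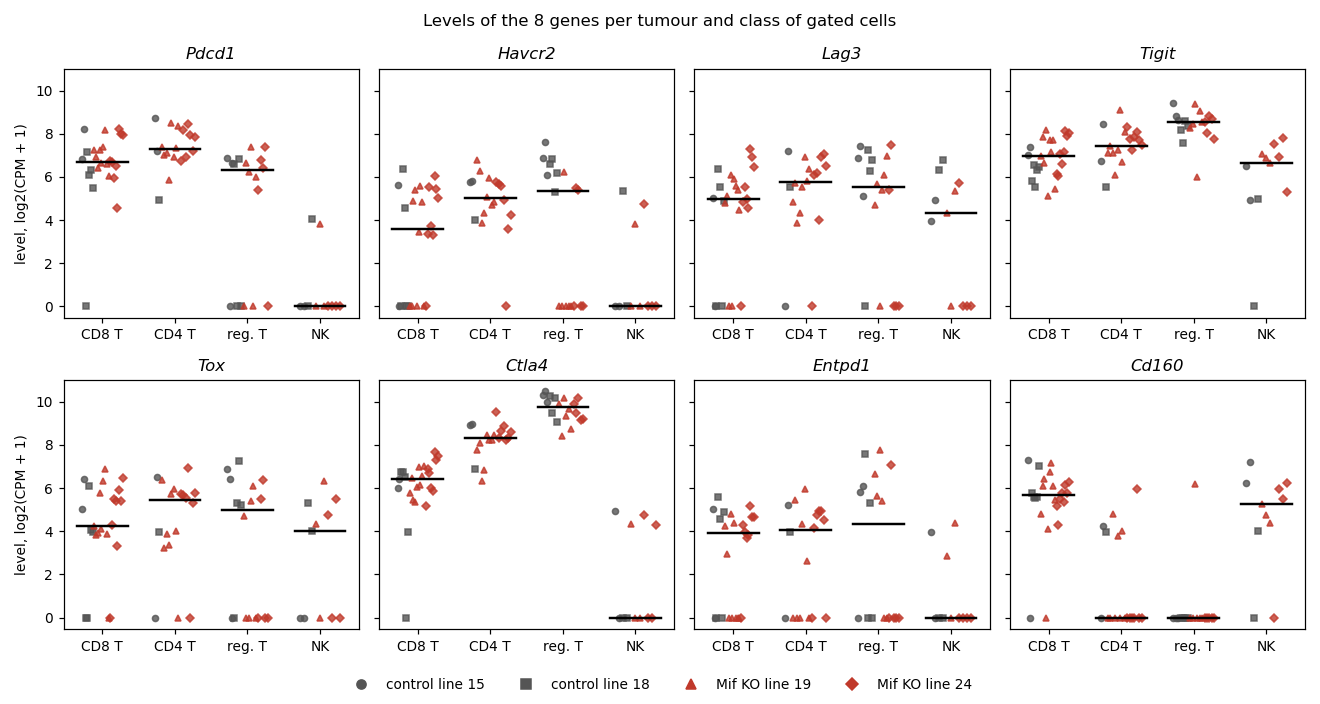
Level of each of the 8 genes in every tumour, as log2(CPM + 1), in CD8 T, CD4 T, regulatory T and NK cells. Points are tumours with at least 10 cells of the class (5 for regulatory T cells), grey for control and red for KO lines with a shape for each line, and black lines are medians. The medians of Ctla4 increase from NK to regulatory T cells, Cd160 lies higher in CD8 T and NK cells, and Pdcd1 is at 0 in 9 of 11 NK tumours.

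Tigit was carried by all 4 lymphocyte classes. Pooled levels were 311 CPM (265 to 362) in regulatory T cells, 179 CPM (166 to 194) in CD8 T cells, 177 CPM (158 to 198) in CD4 T cells and 104 CPM (85.6 to 126) in NK cells. Tigit was also at 9.04 CPM in the macrophage gate and 46.8 CPM in the non-immune gate, where it differed by line. Macrophage means over tumours were 8.06, 10.2, 23.0 and 4.14 CPM in lines 15, 18, 19 and 24. CD8 T and CD4 T cells could not be told apart, with a log2 difference of -0.04 (SE 0.19, adjusted p = 0.977 in edgeR). Per tumour, Tigit ran from 33.1 to 284 CPM in CD8 T cells (mean 137 ± 78.5, SD, n = 24), from 44.6 to 544 in CD4 T cells (202 ± 119, n = 18), from 61.8 to 456 in regulatory T cells (305 ± 144, n = 7) and from 0 to 219 in NK cells (96.0 ± 67.9, n = 11). These ranges overlapped.

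NK cells did not pass the test against CD8 T cells for Tigit, at -0.58 on the log2 scale (SE 0.32, adjusted p = 0.413 in edgeR). Regulatory T cells against CD4 T cells gave 0.45 with an adjusted p of 0.742 in edgeR over 4 tumours. With at least 5 cells the values were 390 ± 156 against 195 ± 121 CPM (SD), higher in 14 of 16 tumours, with a log2 fold change of 0.93 (SE 0.24, adjusted p = 0.0141 in edgeR). That call held in 5 of 8 alternatives, with adjusted p between 0.003 and 0.497.

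Lag3, Havcr2, Tox and Entpd1 were sparser, and many tumours held no UMI of them. Lag3 stood at 64.0 CPM (55.9 to 73.0) in CD8 T, 61.8 in CD4 T, 69.3 in regulatory T and 31.6 in NK cells, pooled, and at 3.68 and 0.519 CPM in the macrophage and non-immune gates. Between CD8 T and CD4 T cells Lag3 differed by -0.17 on the log2 scale (SE 0.25, adjusted p = 0.831 in edgeR). Tox stood at 41.2, 44.5, 45.0 and 17.2 CPM in the same order of classes, and at 0.159 and 0.147 CPM in the reference gates. Its CD8 T to CD4 T difference was -0.12 (SE 0.34, adjusted p = 0.933 in edgeR). Per tumour, CD8 T cells carried 40.3 ± 39.3 CPM of Lag3 with 6 of 24 tumours at 0 and 35.0 ± 32.8 CPM of Tox with 4 of 24 at 0 (SD). Neither gene was tested between regulatory T and CD4 T cells, because they did not pass edgeR's filter on low counts.

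Havcr2 and Entpd1 were not restricted to lymphocytes. Pooled Havcr2 was 46.6 CPM (44.3 to 49.1) in the macrophage gate, against 26.9 (21.7 to 32.9) in CD8 T, 34.5 in CD4 T, 45.0 in regulatory T and 5.74 in NK cells. Entpd1 was 82.2 CPM (79.1 to 85.4) in the macrophage gate, 58.1 (39.5 to 82.4) in regulatory T, 18.3 (14.1 to 23.4) in CD8 T, 18.4 in CD4 T and 3.83 in NK cells. The macrophage means by line were narrow, from 43.5 to 53.5 CPM for Havcr2 and from 67.7 to 87.2 CPM for Entpd1. In CD8 T cells both genes were at 0 in 9 of 24 tumours, with means of 21.6 ± 23.8 and 14.3 ± 13.8 CPM (SD).

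The share of cells with a UMI was compared after each cell was thinned to 1000 UMIs, since the median depth was 1905, 1572, 1626 and 2735 UMIs in CD8 T, CD4 T, regulatory T and NK cells and 2874 and 6466 in the macrophage and non-immune gates. After thinning, Ctla4 was seen in 56.2% of regulatory T, 27.2% of CD4 T, 13.5% of CD8 T and 2.82% of NK cells, beside 0.115% and 0.15% in the reference gates. Unthinned, the regulatory T share was 72.6% and the CD8 T share 23.2%. Tigit was seen in 33.7% of regulatory T, 18.1% of CD8 T, 17.8% of CD4 T and 12.1% of NK cells, beside 0.745% of the macrophage gate and 3.06% of the non-immune gate. Unthinned, these were 51.2%, 33.1%, 31.6%, 27.8%, 2.4% and 19.1%. Pdcd1 was seen in 15.3% of CD8 T, 17.8% of CD4 T, 8.28% of regulatory T and 0.806% of NK cells thinned (29.0%, 32.1%, 11.4% and 2.7% unthinned), beside 0.0382% and 0.0643% in the reference gates. The shares of Ctla4, Tigit and Pdcd1 in T cells all lay above those of both reference gates. Thinning left out 96 of 1272 CD8 T, 78 CD4 T, 32 regulatory T and 11 NK cells.

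The sparser genes gave thinned shares in CD8 T cells of 8.42% for Lag3, 6.55% for Cd160, 4.17% for Tox, 3.4% for Havcr2 and 2.3% for Entpd1. Unthinned, these were 14.3%, 13.9%, 8.81%, 6.76% and 4.87%. The macrophage gate gave 4.85% for Havcr2 and 8.71% for Entpd1 when thinned, above the CD8 T shares, and 14.4% and 24.2% unthinned. The thinned shares of Havcr2 and Entpd1 in the CD8 T gate thus lay below those of another cell type of the same samples. The macrophage list in the CD8 T gate summed to 0.824% of its macrophage-gate level, with its C1q genes and Csf1r held low by the CD8 T gate. Cd160 in NK cells was 4.44% thinned and 13.5% unthinned, beside 0.0191% and 0.0214% in the thinned reference gates.

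Most lymphocytes showed few of the 8 genes at this depth. None of them was detected in 51.5% of CD8 T, 42.3% of CD4 T, 23.1% of regulatory T and 78.2% of NK cells after thinning, and in 33.0%, 25.0%, 9.45% and 47.9% unthinned. At least 4 were detected in 0.85%, 0.489%, 2.37% and 0% after thinning, and in 7.23%, 4.77%, 4.48% and 0% unthinned. A cell in which a gene was not detected may still express it.

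Detection of the receptors in single CD8 T cells was set against that of Pdcd1. After thinning, Tigit was seen in 32.2% of 180 Pdcd1-positive and 15.6% of 996 Pdcd1-negative cells (48.2% of 369 and 26.9% of 903 unthinned). Lag3 was seen in 14.4% against 7.33%, Ctla4 in 20% against 12.3% and Cd160 in 8.89% against 6.12% of the thinned cells. Tox, at 6.11% against 3.82%, and Havcr2, at 3.89% against 3.31%, had lower shares on both sides. Cells share tumours and libraries, and these shares carry no test. They pool tumours, and line 24 gave 789 of the 1272 unthinned CD8 T cells. At day 16 its tumour means were 264 CPM for Pdcd1 and 258 CPM for Tigit, against 130 and 137 CPM over all 24 tumours. The part of this mix in the shares was not tested. Sums per tumour of the thinned cells, over 9 tumours with at least 5 cells on each side, were compared in edgeR as a test added after the data were seen. It called 13 of 846 genes (1.54% called), 3 higher and 10 lower, and none of the 3 members tested: Tigit at 0.68 on the log2 scale (SE 0.26, adjusted p = 0.203), Lag3 at 0.55 (SE 0.46, adjusted p = 0.642) and Ctla4 at 0.40 (SE 0.35, adjusted p = 0.66). Ccl5, a chemokine gene of effector T cells, was called at 0.49 (SE 0.11, adjusted p = 0.00291 in edgeR).

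Havcr2-positive CD8 T cells numbered 40 after thinning. Lag3 was seen in 17.5% of them against 8.1% of the others, Tox in 10.0% against 3.96%, Tigit in 22.5% against 18.0% and Pdcd1 in 17.5% against 15.2%. These shares pool tumours and carry no test. The split by Havcr2 could be tested only with at least 5 cells on each side, in 3 tumours, all of line 24 at day 16, and edgeR called 3 of 776 genes (0.387% called) and none of 4 members tested. The log2 fold changes within these tumours were 0.91 for Lag3 (SE 0.75), -0.02 for Tigit (SE 0.49), -0.1 for Pdcd1 (SE 0.59) and -0.74 for Ctla4 (SE 0.7).

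Among CD8 T cells of line 24, Pdcd1 was high at day 16 in every tumour. The values were 101 and 104 CPM at day 6, 22.2, 59.7 and 89.9 at day 10 and 247, 252 and 293 at day 16. All 3 tumours of day 16, including the 1 from a mixed library at 247 CPM, lay above all earlier ones. Tigit in the same tumours was 64.2 and 69.3 CPM at day 6, 95.9, 134 and 142 at day 10 and 237, 260 and 278 at day 16, so that the days did not overlap. Ctla4 was 34.6 and 119, then 57.8, 62.9 and 104, then 156, 177 and 204 CPM, and Lag3 was 0 and 27.5, then 22.2, 30.0 and 44.8, then 85.5, 121 and 154 CPM. For both, day 16 lay above all earlier tumours of the line.

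For Havcr2, Tox and Cd160 of line 24, days 10 and 16 overlapped. Havcr2 was 31.6, 42.5 and 64.6 CPM at day 16 against 8.89, 12 and 44.8 at day 10, Tox 41.0, 59.7 and 87.4 against 8.89, 42 and 44.8, and Cd160 53.1, 69.6 and 76.2 against 40.0, 44.8 and 54.0. Entpd1 was 0 and 18.3 CPM at day 6, ran from 12 to 14.9 at day 10 and from 24.2 to 34.8 at day 16, where it lay above all earlier tumours of the line. Day 16 gave 509 of the 789 CD8 T cells of line 24, and the median depth of its cells was 2616, 1805 and 1996 UMIs at days 6, 10 and 16.

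In line 19 the ranges of the days overlapped for each of the 8 genes, and lines 15 and 18 had fewer tumours with enough cells. No test of day was made within line 19 alone. Its Ctla4 means were 60.8, 77.9 and 97.8 CPM at days 6, 10 and 16. Its Entpd1 means were 8.15 and 15.5 CPM at days 6 and 10, and all 3 tumours of day 16 were at 0. In line 19, Pdcd1 was 85.1, 120 and 151 CPM at day 6, 99.2, 149 and 166 at day 10 and 63.9, 94.8 and 283 at day 16, and Tigit was 99.3, 125 and 226, then 33.1, 206 and 284, then 42.6, 141 and 210. In line 18, Pdcd1 was 0 at day 6, 140 at day 10 and 43.4, 67.9 and 78.1 at day 16 and Tigit 54.2, 93.3 and then 45.3, 78.1 and 86.7 CPM. Line 15 had 1 tumour each at day 10 and day 16, with 111 and 292 CPM of Pdcd1 and 127 and 167 CPM of Tigit.

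Over the 24 tumours with line as a term, day 16 against day 10 gave a log2 fold change of 1.02 for Pdcd1 (SE 0.32, unadjusted p = 0.00365, adjusted p = 0.324 in edgeR), 0.52 for Tigit (SE 0.28, adjusted p = 0.658), 0.67 for Ctla4 (SE 0.31, adjusted p = 0.633) and 0.37 for Cd160 (SE 0.4, adjusted p = 0.922). None of the 4 members tested passed, and edgeR called 0 of 1954 genes (0% called), with 141 at an unadjusted p under 0.05 and 0 with DESeq2. Without line 24 the changes of Pdcd1 and Tigit were -0.08 and -0.15, and without line 18 edgeR called 4 genes. Day 16 against day 6 gave 0.87 for Pdcd1 (SE 0.39, adjusted p = 0.496 in edgeR), 0.78 for Tigit (SE 0.35, adjusted p = 0.491), 0.64 for Ctla4 (SE 0.39, adjusted p = 0.622) and 0.64 for Cd160 (SE 0.52, adjusted p = 0.763). Here too edgeR called 0 of 1954 genes (0% called), with 191 at an unadjusted p under 0.05 and 0 with DESeq2, and 1 without line 19 and 2 without line 24. These contrasts share the day 16 tumours.

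The difference between the KO lines was tested after it was seen, as the change from day 10 to day 16 in line 24 minus that in line 19 over 12 tumours. It was 2.12 for Pdcd1 (SE 0.63, unadjusted p = 0.00339, adjusted p = 0.754 in edgeR), 2.12 for Lag3 (SE 0.86, adjusted p = 0.813), 1.19 for Tigit (SE 0.61, adjusted p = 0.852) and 1.02 for Ctla4 (SE 0.53, adjusted p = 0.853). None of 4 members and 0 of 2301 genes passed (0% called), with 138 at an unadjusted p under 0.05.

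**Figure D2:**
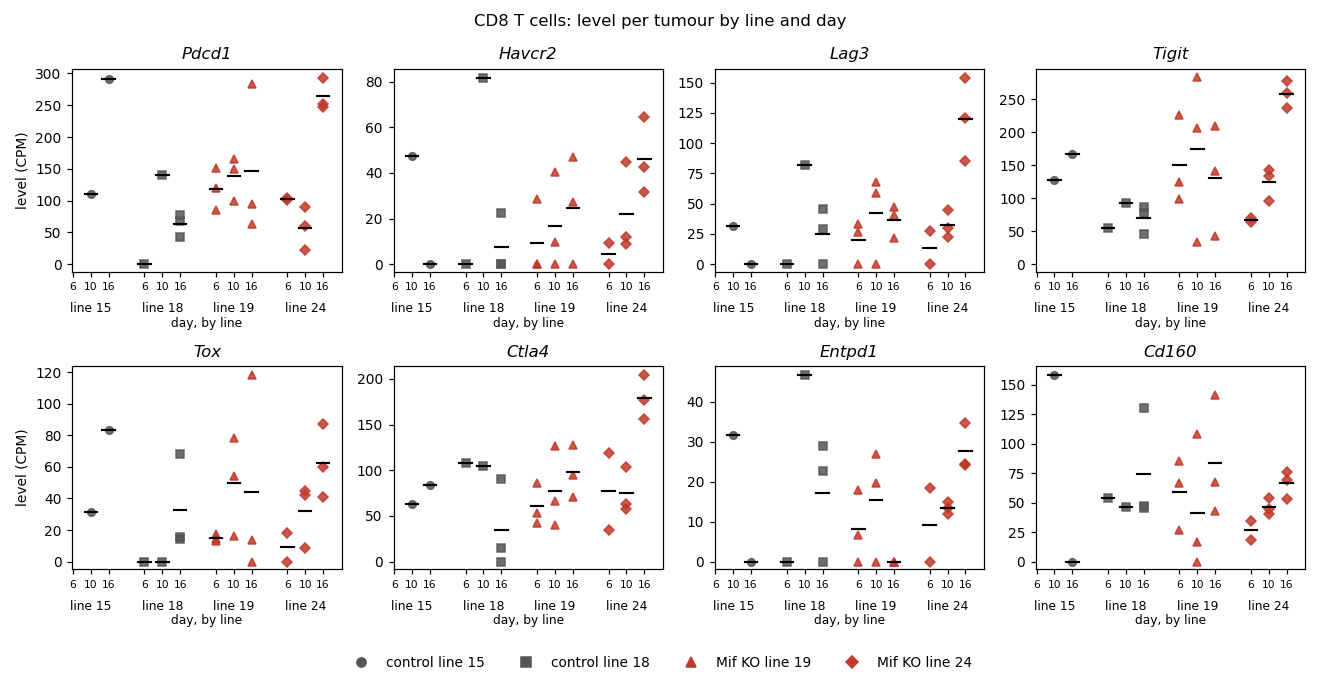
CPM of the 8 genes in CD8 T cells by line and day, 1 point a tumour with at least 10 CD8 T cells and a black line at the mean. In line 24 the day 16 tumours lie at 247 to 293 CPM for Pdcd1 and 237 to 278 CPM for Tigit, above its earlier tumours, while the days of line 19 overlap.

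No member passed the test for day in CD4 T or NK cells. In CD4 T cells, day 16 against day 6 called 5 of 2693 genes in edgeR (0.186% called; 24 with DESeq2; 11 without line 18 and 0 without line 19), and day 16 against day 10 called 3 (0.111% called; 3 with DESeq2; 5 without line 15), with none of the 3 members tested among them. Tigit had the larger change against day 10, 0.52 (SE 0.3, adjusted p = 0.817 in edgeR), beside 0.19 for Ctla4 and -0.32 for Pdcd1. In NK cells Tigit alone could be tested, at -1.47 against day 6 (SE 1.6, adjusted p = 0.885 in edgeR) and -1.1 against day 10 (SE 0.98, adjusted p = 0.958). The first contrast called 0 of 1493 genes (0% called; 105 at an unadjusted p under 0.05; 0 with DESeq2), and the second called 7 (0.469% called; 0 with DESeq2), or 0 without line 15 or without line 18, 4 without line 19 and 3 without line 24. In regulatory T cells with at least 5 cells, 942 genes were tested over 18 tumours, and 0 were called in edgeR for either contrast (0% called each), with 32 and 48 at an unadjusted p under 0.05. Day 6 had 1 such tumour, so the contrast with day 6 assumes that it varied like the others and says little.

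Between KO and control tumours, no member that was tested in CD8 T, CD4 T or regulatory T cells passed, and no member passed the count filter in NK cells. In CD8 T cells Tigit was 156 ± 83.5 CPM (SD, n = 17) in KO and 93.1 ± 42.2 CPM (SD, n = 7) in control tumours, over ranges of 33.1 to 284 and 45.3 to 167 CPM, which overlapped. The log2 fold change was 1.0 (SE 0.36, adjusted p = 0.12 in edgeR). Over 16 alternatives it ran from 0.29 to 1.30, with adjusted p from 0.00457 to 0.958 and a call in 3: with no filter on low counts (1.27), without the cells of highest UMI count (1.09) and without line 19 (1.0). Pdcd1 was 140 ± 81.9 against 105 ± 94.1 CPM, with a log2 fold change of 0.64 (SE 0.4, adjusted p = 0.416 in edgeR) that was -0.36 without line 18.

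The remaining members did not pass the filter on low counts in this comparison. Their CD8 T means were 95.6 ± 50.1 CPM in KO against 66.4 ± 43.2 in control tumours for Ctla4, 45.9 ± 42 against 26.8 ± 30.4 for Lag3, 21.6 against 21.7 for Havcr2, 36.9 against 30.5 for Tox, 12.5 against 18.5 for Entpd1 and 55.6 against 68.7 for Cd160. All of these differences were smaller than the SD between tumours of either group. The fit called 54 of 1490 genes (3.62% called), 36 higher and 18 lower, where DESeq2 called 81, 40 higher and 41 lower. The count was 7 without control line 18, 1 without KO line 24, and 0 in the mixed libraries alone, with library as a term or with 1 sum per line.

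In CD4 T cells 3 control tumours could be set against 15 KO tumours. Ctla4 was 369 ± 217 in control and 328 ± 151 CPM in KO tumours, with a log2 fold change of -0.09 (SE 0.45, adjusted p = 0.985 in edgeR). Pdcd1, at 200 ± 204 and 195 ± 96.3 CPM, gave 0.55 (SE 0.59, adjusted p = 0.814), and Tigit, at 166 ± 159 and 209 ± 115 CPM, gave 0.22 (SE 0.48, adjusted p = 0.945). For Pdcd1 the fitted change, with day as a term, and the unscaled means pointed opposite ways. In edgeR 0 of 1532 genes were called (0% called; 174 at an unadjusted p under 0.05; 24 with DESeq2; 1 without line 18 and 17 without line 19). The control value of Pdcd1 rested on line 15, since the pooled level of line 18 was 39.2 CPM (14.4 to 85.4) against 159, 180 and 218 CPM in lines 15, 19 and 24. This is the CD4 T gate with the highest line and stroma markers.

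In regulatory T cells with at least 5 cells, Ctla4 ran from 543 to 1440 CPM with a median of 1140 over 7 control tumours and from 345 to 1170 CPM with a median of 704 over 11 KO tumours. The log2 fold change was -0.70 (SE 0.27, unadjusted p = 0.0158, adjusted p = 0.279 in edgeR), and Tigit gave -0.17 (SE 0.38, adjusted p = 0.87). The ranges overlapped, and 0 of 942 genes were called in edgeR (0% called; 127 at an unadjusted p under 0.05). In NK cells no member passed the count filter. Tigit was 130 ± 58.1 CPM in 7 KO tumours (SD, 37.8 to 219) and 37.2 ± 37.0 CPM in 4 control tumours (SD, 0 to 88.4), and Lag3 was 15.8 ± 21.9 against 57.5 ± 43.2 CPM, with ranges that overlapped for both. The other members of the set lay at 37.7 against 59.0 CPM (Cd160), 24.0 against 13.6 (Tox) and below 10 in both groups (Pdcd1, Ctla4, Havcr2 and Entpd1). The days were not balanced between these groups. At day 6 Tigit had a mean of 116 CPM in 3 KO tumours and was 88.4 CPM in 1 control tumour. At day 10 the mean was 174 CPM in 3 KO tumours, with 1 control tumour at 0. At day 16 Tigit was 37.8 CPM in 1 KO tumour and 29.5 and 30.8 CPM in control tumours. Fitted without the filter, Tigit had a log2 fold change of 1.23 (SE 0.62, adjusted p = 0.937 in edgeR) and Lag3 one of -1.55 (SE 0.81, adjusted p = 0.937 in edgeR). With the filter, 0 of 1079 genes were called in edgeR (0% called; 92 at an unadjusted p under 0.05; 0 with DESeq2; 7 without line 15, 11 without line 19 and 1 without line 24).

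The KO effect was also compared between classes of the same tumours. For CD8 T minus CD4 T cells, 6 members were tested and none passed, with Pdcd1 at -1.94 (SE 0.95, adjusted p = 0.637 in edgeR) and Tigit at 0.08 (SE 0.76, adjusted p = 1), and 0 of 3024 genes were called (0% called; 234 at an unadjusted p under 0.05; 0 with DESeq2; 3 without line 19). For CD8 T minus regulatory T cells, over 7 tumours, Ctla4 gave 1.13 (SE 0.78) and Tigit 1.14 (SE 0.77), both with an adjusted p of 0.995 in edgeR, and 1 of 1114 genes was called (0.0898% called), or 0 without any 1 of the lines. The 4 control tumours of that fit were all of day 16 and the 3 KO tumours all of day 10, so KO and day cannot be told apart in it. For CD8 T minus NK cells, over 9 tumours, Pdcd1 gave 1.3 (SE 1.79) and Tigit -1.44 (SE 1.06), both with an adjusted p of 1 in edgeR, and 0 of 1648 genes were called (0% called; 65 at an unadjusted p under 0.05; 0 with DESeq2).

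**Figure D3:**
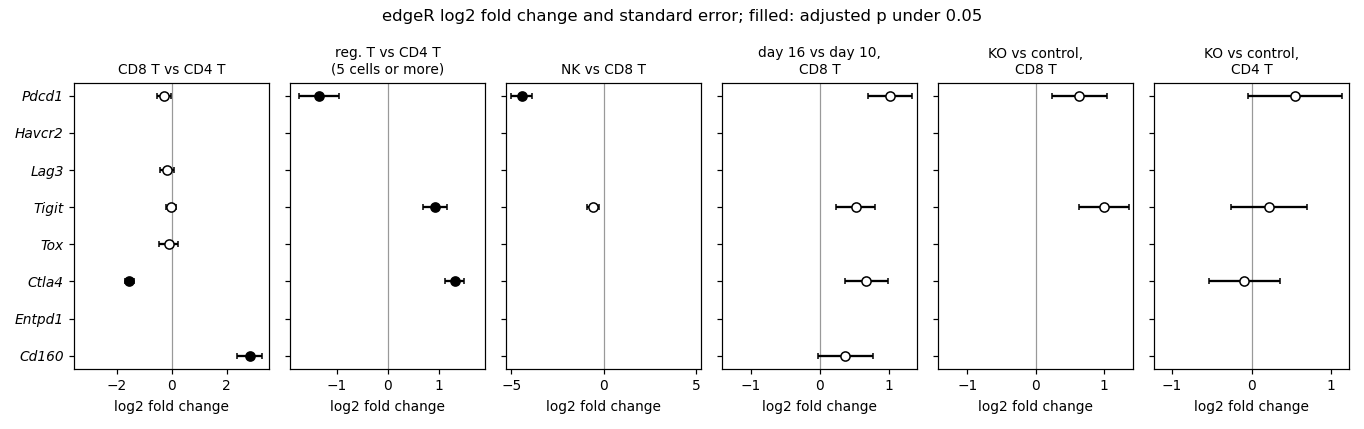
Log2 fold change with its SE of each member tested by edgeR in 6 comparisons. Filled points have an adjusted p under 0.05. Ctla4 and Cd160 are filled for CD8 T against CD4 T cells, Ctla4, Tigit and Pdcd1 for regulatory T against CD4 T cells with at least 5 cells, and Pdcd1 for NK against CD8 T cells, and no point is filled for day 16 against day 10 or for KO against control.

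In the non-immune gate Tigit stood at 46.8 CPM (46.2 to 47.5) pooled, and the other 7 genes lay between 0.109 and 1.72 CPM. The level depended on the line. In line 19 it was 72.2 CPM at day 0, 63.9, 83.3 and 93.2 at day 6, 70.4, 72.6 and 82.9 at day 10 and 60.9, 65.2 and 65.6 at day 16. In line 24 it was 1.94 CPM at day 0, 3.76 and 10.7 at day 6, 1.65, 3.82 and 8.35 at day 10 and 2.04, 3.61 and 6.78 at day 16. Both are Mif KO lines, and their values did not overlap.

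The control lines lay mostly between them and were lower at later days from day 6 on. Line 15 was at 54.1 CPM at day 0, 36.5, 41.7 and 51.5 at day 6, 27.3, 27.8 and 32.5 at day 10 and 13.7, 17.3 and 18.4 at day 16. Line 18 was at 27.9 CPM at day 0, 56.2, 62.4 and 67.4 at day 6, 22.8, 24.7 and 27.1 at day 10 and 9.35, 13.2 and 14.2 at day 16. In both lines the 3 tumour days did not overlap. Tigit UMIs were seen in 40.1%, 15.4%, 34.5% and 1.26% of the day 0 cells of lines 15, 18, 19 and 24, unthinned. The day 0 samples of lines 15, 18 and 19 held no cell of the T-cell or NK gates, and that of line 24 held 3 CD8 T and 12 other T cells.

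Over 35 tumours with line as a term, Tigit in the non-immune gate changed by -1.33 on the log2 scale from day 6 to day 16 (SE 0.20, adjusted p = 6.78e-06 in edgeR), in a fit that called 5464 of 13115 genes (41.7% called) and 1 of 6 members. This call held in 7 of 7 alternatives, from -1.81 to -0.87. Line 24 against line 19 gave -3.95 (SE 0.29, adjusted p = 1.33e-13 in edgeR), with 7694 of 13115 genes called (58.7% called). All 6 members tested passed there, Tigit lower and the other 5 higher in line 24, led by Ctla4 at 3.67 (SE 0.45, adjusted p = 1.87e-08). Markers of T cells, NK cells and macrophages moved with these 5 in the same cells: all 7 tested genes of the costimulatory list and 11 of 12 of the effector list were called higher in line 24, among them Icos at 3.55, Cd2 at 3.34, Nkg7 at 3.72 and Gzmb at 4.06 on the log2 scale. Pooled over tumours, the T-cell list (8 markers, 3 at 0 by the gate) summed to 21.76 CPM in line 19 and 34.81 CPM in line 24, the NK list (8, 2 at 0) to 23.24 and 89.3 CPM, and the macrophage list (8, 4 at 0) to 34.66 and 123.9 CPM, with Lyz2 at 18.6 and 73.1 CPM. Thy1 weighed most in the T-cell sums, at 14.6 to 28.1 CPM by day in line 19 and 13.2 to 45.8 in line 24. It was at 62.4 to 76.8 CPM in control line 15. Cd2, of the same list, was at 0.25 to 0.37 CPM in line 19 and 1.88 to 4.9 in line 24. The part of all these markers in the differences of the 5 members was not tested. These fits of the non-immune gate were added after Tigit was seen there.

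KO against control in the non-immune gate gave 0.72 for Tigit (SE 0.41, adjusted p = 0.156 in edgeR), with 5813 of 12737 genes called (45.6% called) and 2 of 5 members. Without line 19 the Tigit difference was -2.41 (adjusted p = 5.96e-09) and without line 24 it was 1.5 (adjusted p = 1.27e-08), so that the KO lines lay on opposite sides of the controls. The members called were Ctla4, at 2.65 (SE 0.62, adjusted p = 0.000811 in edgeR), and Lag3, at 1.12 (SE 0.41, adjusted p = 0.0267), both at low levels of at most 5.33 and 2.02 CPM by line and day. Both genes were high in line 24 and not in KO line 19: the means over tumours of Ctla4 were 0.17, 0.364, 0.302 and 4.13 CPM in lines 15, 18, 19 and 24, and those of Lag3 were 0.384, 0.422, 0.361 and 1.77 CPM. Ctla4 was called in 6 of 9 alternatives and not with library as a term (0.79), in the mixed libraries (1.31) or with 1 sum per line, with adjusted p up to 0.629 in edgeR. Lag3 was called in 4 of 8 and not without line 15, without line 18, with library as a term (0.19) or with 1 sum per line. In the same cells the T-cell receptor gene Trac was 1.42 to 2.3 CPM in line 24 at days 6 to 16 and at most 0.43 CPM in the other lines, and its part in these differences was not tested. Tigit in CD8 T cells did not show this gap between the KO lines, with tumour means of 152 ± 85.8 CPM in line 19 (SD, n = 9) and 160 ± 86.5 CPM in line 24 (SD, n = 8). Zbtb20, the nearest gene to Tigit at 6265 bases, lay between 61.7 and 167 CPM.

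**Figure D4:**
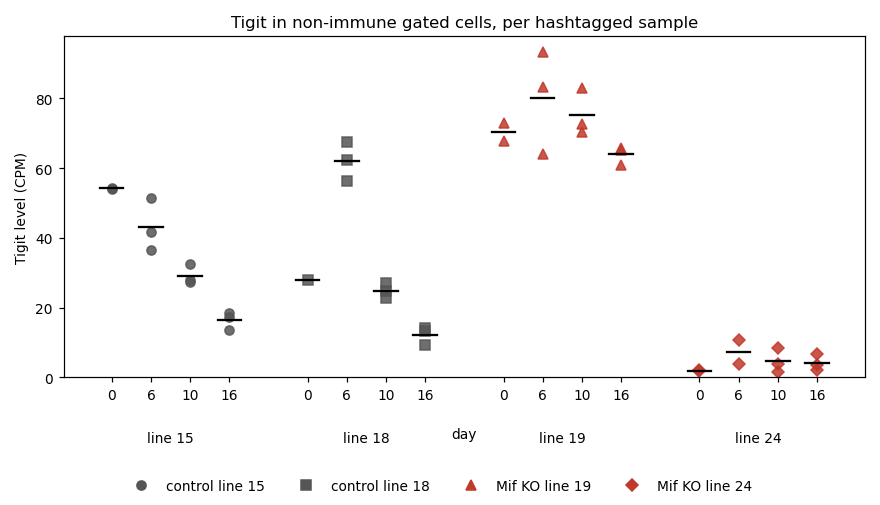
Tigit CPM in the non-immune gate for every hashtagged sample of the 4 lines at days 0, 6, 10 and 16, with a black line at the mean. Line 19 stays between 60.9 and 93.2 CPM, line 24 at or below 10.7 CPM, and lines 15 and 18 are lower at day 16 than at day 6.

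Lists of related genes were counted in the comparison of CD8 T with CD4 T cells, with no test of a list. Counts are higher and lower in CD8 T cells among members tested, with the list's median log2 fold change beside 0.01 over all 3024 genes, of which 11.8% were called. Of stem-like and memory genes, 4 of 7 were higher and 0 lower (median 1.17), with Xcl1, a chemokine gene, at 2.54, the transcription factor gene Tcf7 at 2.18, the IL-7 receptor gene Il7r at 1.05 and Satb1 at 0.66. Of effector genes, 6 of 12 were higher and 1 lower (0.70), with perforin Prf1 at 3.21, Gzmk at 3.13, Ccl5 at 2.92 and Gzma at 2.81. Gzmk and Ccl5 also stand in the CD8 T marker list. Of genes linked to dysfunction, 1 of 11 was higher and 7 lower (-0.71), among them the transcription factor genes Batf at -1.55, Rbpj at -1.09 and Bhlhe40 at -1.09 and the chemokine receptor gene Cxcr6 at -1.43.

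Of costimulatory partners, 4 of 8 were lower and 1 higher in CD8 T cells (median -0.56), with Tnfrsf4 (OX40) at -3.23, Tnfrsf18 (GITR) at -1.64 and Icos at -1.36, and Cd27 higher at 1.32. Tnfrsf4 and Tnfrsf18 also stand in the regulatory T marker list, which was counted in the CD4 T gate too, and Icos stands in the CD4 T marker list. Of other inhibitory receptors 2 of 10 could be tested, and Klrc1, encoding NKG2A, was higher at 1.29 (adjusted p = 0.000882 in edgeR). Of genes of proximal signalling 2 of 8 were lower, Zap70 at -0.83 and Ptpn11, which encodes a phosphatase recruited by PD-1, at -0.79, with a median of 0.02.

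In regulatory T against CD4 T cells, with at least 5 cells a tumour and a median of -0.03 over all 932 genes, of which 7.83% were called, 6 of 6 costimulatory genes tested were higher (median 1.02), including Cd27 at 1.73, Tnfrsf9 (4-1BB) at 1.38, Tnfrsf4 at 1.09 and Icos at 0.94. Tnfrsf4 and Tnfrsf18 of the costimulatory list also stand in the regulatory T marker list. Ctla4 and Tigit were higher in the same comparison. Klrg1 was higher at 2.17. Of 9 dysfunction-linked genes 1 was higher, Ikzf2 (Helios, also a regulatory T marker) at 2.34, and 3 were lower, Cxcr6 at -2.64, Bhlhe40 at -1.62 and Nr4a3 at -1.38. Of 6 effector genes Gzmb was higher at 2.34, and Ifng at -3.91 and Nkg7 at -0.83 were lower.

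NK cells against CD8 T cells had 4 of 8 effector genes higher and 0 lower (median 1.22, against -0.01 over all 1648 genes, of which 4.98% were called), Gzma at 4.30, Prf1 at 4.06, Ccl3 at 2.74 and Ccl4 at 1.66. The receptor gene Klra7 was higher at 3.14. Costimulatory genes split, with Tnfrsf9 higher at 1.24 and Icos lower at -2.15, as did dysfunction-linked genes, with Eomes higher at 2.16 and Cxcr6 lower at -5.25, and stem-like genes, with Xcl1 higher at 2.60 and Ccr7 lower at -3.55. Gzma and Eomes also stand in the NK marker list. No proximal signalling gene of 4 was called.

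In KO against control CD8 T cells, 3 of 9 dysfunction-linked genes tested were higher and 0 lower (median 0.59, against 0.01 over all 1490 genes, of which 3.62% were called): the nuclear receptor genes Nr4a3 at 2.68 (SE 0.46, adjusted p = 0.00121 in edgeR) and Nr4a2 at 1.31 (adjusted p = 0.0296), and Ikzf2 at 2.0 (adjusted p = 0.0215). No gene was called in this comparison with library as a term, in the mixed libraries alone or with 1 sum per line, and 1 was called without line 24, so these calls rest on the design as fitted. NR4A factors act downstream of the T-cell receptor and are linked to the TOX programme. Nr4a3 was also higher in the KO non-immune gate, at 1.91 (adjusted p = 4.74e-06 in edgeR), in a fit that called 45.6% of genes. In that gate it was 2.14 higher in KO line 24 than in KO line 19 on the log2 scale (adjusted p = 5.39e-12 in edgeR). The part of this RNA in the CD8 T value was not tested. Ikzf2 was 60.4, 42.1, 154 and 143 CPM in the CD8 T gates of lines 15, 18, 19 and 24. No gene was called among 6 costimulatory (median 0.02), 5 stem-like (0.44) or 6 effector (-0.41) genes tested. At day 16 against day 10, no gene of any list was called over the 24 tumours, with medians of 0.36 for 9 dysfunction-linked, 0.22 for 7 costimulatory, 0.07 for 9 effector and -0.23 for 6 stem-like genes.

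The genes whose levels most resembled each member were sought over 31 means of line, day and class among 8745 genes, by Pearson's r of log2(CPM + 1). These points share libraries and depth, and r is a description. For Ctla4 they were Ifi27l2a (0.90), Cd5 (0.88) and Cd6 (0.86), and for Tigit they included Ifi27l2a (0.81) and Phlda1 (0.80). For Pdcd1 they were Fam169b (0.87), Gm8369 (0.83) and Trim56 (0.80), for Lag3 Parp4 (0.86), Dpf2 and Cebpzos (0.80 each), and for Havcr2 Furin (0.79), Leprot (0.77) and Tnfrsf4 (0.74). For Entpd1 they were Alcam (0.78), Gna12 (0.77) and Irak1bp1 (0.75), for Tox Bri3bp and Phf11b (0.76 each) and Csnk2a1 (0.75), and for Cd160 Usp11 (0.73), Cenph and Zfp322a (0.72 each). Ifi27l2a was the 1 gene named for more than 1 member.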

How the data were processed

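The deposited matrices of 6 libraries hold the authors' raw UMI counts of genes and hashtags in each barcode; Cell Ranger 6.0.0 and mm10 were used per the submitters' processing notes, which name no annotation. A minimum of 300 genes and a maximum of 15% mitochondrial UMIs defined passing cells. HTODemux (Seurat 5.3.0) assigned cells to 45 of 47 hashtags in the authors' sheet, those with at least 0.1% of their library's hashtag counts, and hashtag doublets (17.9% to 30.9% of passing cells) and negative cells were left out. Each hashtag was 1 sample, and doublets of 2 cells of the same tumour could not be removed.

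Gated cells were summed per tumour and class and fitted in edgeR 4.0.16 (filterByExpr, TMM, glmQLFit, glmQLFTest) over all genes, with Benjamini-Hochberg adjustment and a threshold of 0.05. Terms were day for KO against control, line for days, and the tumour for classes. SEs came from edgeR's F statistic. P-values measure the spread between these tumours, which are nested in 2 lines per group. Means ± SD are of unscaled CPM. DESeq2 1.42.0 was an alternative, beside scaling (RLE), filters, gates, hashtag calls, cell minimums, libraries, and leaving out each line. WT tumours entered no test.

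The 8 genes, the marker lists and the gene lists were chosen with earlier results of these data known. Named genes are the 8, up to 4 called genes of a list by size of change, and the 3 most alike genes, of which 1 is not reported here. Ccl5 was named after its value was seen. Promoters come from RefSeq. Python used scipy 1.17.1, numpy 2.4.6, pandas 2.3.3 and matplotlib 3.10.9.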

Additional observations from a re-analysis of the deposited data

Results flagged for a closer look

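In 44 groups of 4 to 10 tumours of 1 line, 8 held a highest value far from the others, by Dixon's test. That test assumes normal values, while these groups pool days and hold sparse counts, many at 0. How many flags chance would give is therefore not known. In CD8 T cells these were Cd160 at 130 CPM in a line 18 tumour of day 16 (9 UMIs in 23 cells, the next tumour at 54.2), Havcr2 at 81.6 CPM in a line 18 tumour of day 10 (7 UMIs in 35 cells, next 22.6), Pdcd1 at 283 CPM in a line 19 tumour of day 16 (12 UMIs in 25 cells, next 166) and Tox at 67.9 CPM in a line 18 tumour of day 16 (3 UMIs in 21 cells, next 15.6). In CD4 T cells they were Cd160 at 60.4 CPM in a line 24 tumour of day 16 (2 UMIs in 18 cells, next 0), Ctla4 at 738 CPM in a line 24 tumour of day 6 (14 UMIs in 11 cells, next 464), Tigit at 544 CPM in a line 19 tumour of day 16 (9 UMIs in 10 cells, next 272) and Tox at 123 CPM in a line 24 tumour of day 10 (25 UMIs in 113 cells, next 53.1). All but the last rest on at most 14 UMIs.

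Tigit in the non-immune gate differed between the KO lines by -3.95 on the log2 scale, line 24 minus line 19, in edgeR's test of that difference. At day 0, outside the tumour comparisons, Tigit in the non-immune gate of line 19 was 72.2 CPM, above both control lines at day 0.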

How the results depend on the processing

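For the 8 genes, 41 changes were recomputed under 429 alternatives, of which 381 kept their direction and their side of the threshold. Of the 41 changes, 10 were called as reported and 26 under no setting. Directions reversed in 24 alternatives. These totals leave out the members in the differences of KO effects, the split by Havcr2 and the day contrasts of CD4 T, NK and regulatory T cells. In the non-immune gate they hold Tigit for day, Tigit for line 24 against line 19, and Tigit, Ctla4 and Lag3 for KO. The 5 members called higher in line 24 than in line 19 there are thus not counted. As lines were left out, log2 changes ranged from -0.36 to 1.03 for Pdcd1 (KO, CD8 T), from -0.65 to 1.42 for Ctla4, -0.23 to 2.94 for Pdcd1 and -0.34 to 1.9 for Tigit (KO, CD4 T), from -0.15 to 0.81 for Tigit (day 16 against day 10, CD8 T), from -0.21 to 0.16 for Tigit (CD8 T against CD4 T), from -0.15 to 0.73 for Tigit (regulatory T against CD4 T) and from -0.47 to 0.23 for Tigit (KO, regulatory T, at least 5 cells). The reversals came without control line 18 for Pdcd1 (KO, CD8 T and CD4 T) and Tigit (KO, CD4 T), without control line 15 for Ctla4 (KO, CD4 T) and for Tigit (KO, regulatory T; 0.0 in CD8 T against CD4 T), without line 24 for Pdcd1 (-0.08) and Tigit (days, CD8 T) and Tigit (both class comparisons), and without line 19 for Ctla4 (0.21; KO, CD4 T) and Tigit (-2.41; KO, non-immune gate). With a stricter gate Pdcd1 was -0.29 and Tigit -1.33 (KO, CD4 T), and Tigit 0.26 (CD8 T against CD4 T). Ctla4 (KO, CD4 T) was 0.11 without the count filter, 0.07 with another hashtag call, 0.06 with a stricter cell filter and 0.17 with 1 sum per line. Tigit (CD8 T against CD4 T) was 0.02 without the count filter and 0.15 with a stricter cell filter or at least 20 cells, Tox there 0.0 with line and day in place of the tumour, and Ctla4 in the split by Pdcd1 -0.03 without the count filter. The cause of these changes was not tested.

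Counts of genes called moved by over 1.5 times as follows. KO in CD8 T cells (54) became 110 without the count filter, 19 with the stricter gate, 31 with another hashtag call, 103 without high-UMI cells, 4 at a minimum of 5 cells, and 0 in mixed libraries, with a library term or with 1 sum per line, and ranged from 1 to 64 as lines were left out. KO in CD4 T cells (0) became 24 with DESeq2, 37 without the filter, 5 with the stricter gate, 3 with another hashtag call, 3 without high-UMI cells and 7 at 5 cells, from 0 to 17 over lines. KO in NK cells (0) became 31 without the filter, 3 with another hashtag call, 21 at 5 cells, 27 in mixed libraries and 4 with a library term, from 0 to 11 over lines. Day 16 against day 6 in CD8 T cells (0) became 17 without the filter, 1 without high-UMI cells and 1 at 5 cells, from 0 to 2 over lines; in CD4 T cells (5) 24 with DESeq2, 8 with RLE, 16 without the filter, 3 with the stricter gate, 9 with the stricter cell filter, 8 without high-UMI cells, 1 at 20 cells and 8 at 5 cells, from 0 to 11 over lines; in NK cells (0) 7 without the filter. Day 16 against day 10 in CD8 T cells (0) became 29 without the filter, 10 with the stricter gate, and 1 with the stricter cell filter, without high-UMI cells or at 20 cells, from 0 to 4 over lines; in CD4 T cells (3) 21 without the filter, 78 with the stricter gate, 1 with another hashtag call, 6 with the stricter cell filter, 8 at 20 cells and 0 at 5 cells, from 2 to 5 over lines; in NK cells (7) 27 without the filter and 0 with DESeq2, another hashtag call, no high-UMI cells or 5 cells, from 0 to 4 over lines. CD8 T against CD4 T (356) became 67 with the stricter gate, from 198 to 380 over lines. Regulatory T against CD4 T (4) became 22 with DESeq2, 8 with RLE, 79 without the filter, 52 with another hashtag call, 11 with the stricter cell filter, 31 without high-UMI cells, 73 at 5 cells and 7 with line and day, from 2 to 49 over lines. NK against CD8 T (82) became 199 without the filter, 135 with another hashtag call and 151 at 5 cells, from 40 to 96 over lines. The KO effect in CD8 T minus CD4 T (0) became 9 without the filter, from 0 to 3 over lines, and in CD8 T minus regulatory T (1) became 2 without the filter and 0 with the stricter cell filter, without high-UMI cells, at 5 cells or without any line.

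Could not be fitted: at 10 cells, KO and day contrasts in regulatory T cells and the split by Havcr2; the 20-cell minimum for KO in CD4 T cells, for NK cells over KO and days, for regulatory T against CD4 T and for the differences of KO effects; the stricter gate for the same except KO in CD4 T cells; mixed libraries or a library term for KO in CD4 T cells; and day 16 against day 6 in NK cells without line 15. Depth limits the sparse genes: Lag3, Havcr2, Tox, Entpd1 and Cd160 did not pass the count filter in KO against control in any lymphocyte class, and Ctla4 did not in CD8 T or NK cells.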

Other observations

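The 3 WT tumours held 9, 16 and 130 CD8 T cells at days 6, 10 and 16. Pdcd1 there was 64.2, 114 and 106 CPM, Tigit 64.2, 152 and 66.7, Lag3 32.1, 171 and 39.4, Ctla4 96.3, 133 and 94.0, and Cd160 96.3, 133 and 66.7. In the WT tumours the non-immune gate carried Tigit at 25.3, 18.9 and 11.4 CPM at days 6, 10 and 16.

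In CD4 T cells Entpd1 was seen in 7.34% of 109 Tigit-positive cells and 0.792% of 505 Tigit-negative cells after thinning, which rests on 8 and 4 cells. In regulatory T cells Ctla4 was seen in 56.1% of 57 Tigit-positive and 56.2% of 112 Tigit-negative cells, thinned. In the split of CD8 T cells by Pdcd1, 4 stem-like genes were tested, with a median of -0.58 and none called.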
